A study of Homo sapiens with 44 samples.

Results

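HEK293-GR cells are HEK293 cells, a line derived from human embryonic kidney, that were made to express the glucocorticoid receptor (GR) all the time from an integrated copy. The comparison described here asks how the RNA of these cells differed when IRF2BP2, a transcriptional cofactor, was lowered while GR was active. It sets 3 libraries of cells that received small interfering RNA (siRNA) against IRF2BP2 beside 3 libraries of cells that received a non-targeting siRNA, all treated with dexamethasone (dex), a synthetic glucocorticoid. These were 6 of the 44 samples of the series, and all genes of the deposited HEK293-GR table were considered. The groups are called siIRF2BP2 dex and siNON dex. Both had been moved to steroid-depleted medium and transfected with 20 nM of a pool of siRNAs for 72 h, and both received 100 nM dex for the last 6 h. The labels number 4 replicates in each group, and the table has columns for replicates 1 to 3, so replicate 4 was not analysed here. Cells of the same line that received vehicle (ethanol) in place of dex, again 3 libraries with each siRNA, were in the same statistical fit and served to ask whether an effect of the knockdown differed with dex. The line is 1 isogenic line. Nothing in the labels says that replicates came from separate cultures, so p-values measure the spread between these libraries, which may be technical.

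IRF2BP2 belongs to a small family of nuclear proteins with a zinc finger and a RING finger. It was first described as a partner of the repressor IRF2, and it is also known as a partner of VGLL4, NFAT factors and other transcriptional regulators, acting as a corepressor at some genes and a coactivator at others. GR is a ligand-activated transcription factor that binds DNA after dex enters the cell and raises or lowers the transcription of nearby genes, partly through cofactors of this kind.

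Values are FPKM, read counts scaled to exon length and library size, so levels of sparsely covered genes can be compared between genes. For densely covered genes FPKM is compressed: the densest gene of each dex library had 2.83 to 2.99 reads per base whatever its depth, so levels of such genes are not compared and small changes in them may not show. Differences are log2 fold changes of FPKM plus 0.1, siIRF2BP2 dex over siNON dex, with a standard error (SE), and the constant of 0.1 understates changes of genes at low FPKM. A gene was called higher or lower when its adjusted p (limma over all genes tested, Benjamini-Hochberg) was under 0.05. Of 25690 genes, 15594 had at least 10 reads in at least 3 of 12 libraries and were tested. Sequenced tags per library ran from 18.2 to 28.5 M (mega), and 55.6 to 61.7% of them lay on genes of the table in the dex libraries. siIRF2BP2 dex replicate 3 was the deepest library, at 28.5 M tags, and siIRF2BP2 dex replicate 2 the shallowest. The knockdown libraries deviated a little more from their group (median 0.087 to 0.11 on the log2 scale) than the control libraries (0.069 to 0.082). All 14 markers of HEK293 cells on the list were tested, and their summed level was 195 to 200.0 FPKM in siNON dex and 169 to 192 FPKM in siIRF2BP2 dex. Of 13 markers of A549 and lung epithelium, 7 averaged under 0.1 FPKM in each group, the surfactant genes SFTPA1 and SFTPD being at 0 in both. NKX2-1 of that list was expressed, at 5.06, 4.455 and 3.7 FPKM (siNON) and 4.78, 4.18 and 3.755 FPKM (siIRF2BP2). Of 16 markers of blood, endothelial and fibroblast cells, 7 averaged under 0.1 FPKM in each group, and HBB was at 0 in every dex library. HBA1 of the same list was expressed and was called lower, from 4.85, 4.89 and 4.2 to 3.71, 1.73 and 2.27 FPKM (log2 fold change -0.89). CD14 was called higher (log2 fold change 1.15) on 2 to 29 reads per dex library.

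These sequences from RefSeq (build GRCh38.p14) are shown because their genes, members of 3 groups described below, were called after the knockdown. Known elements of the regulators of these groups could be looked for next to their start sites. Each is the 250 bases before a start site, 5′ to 3′ on the strand of the gene, in lower case with matches in capitals. CTGF is listed there as CCN2. The element bound by TEAD factors, GGAATG or its reverse complement CATTCC, is in capitals in the first 3. The sterol element TCACNCCAC is in capitals in the fourth, and the amino acid response element TGATGNAA in the fifth, each searched on both strands.
CTGF, chr6:131951373-131951622, minus strand: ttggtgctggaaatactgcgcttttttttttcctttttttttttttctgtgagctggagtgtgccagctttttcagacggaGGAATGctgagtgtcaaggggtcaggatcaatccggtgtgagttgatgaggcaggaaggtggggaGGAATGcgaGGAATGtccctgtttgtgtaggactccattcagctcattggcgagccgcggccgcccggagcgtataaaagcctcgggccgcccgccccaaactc
ANKRD1, chr10:90921088-90921337, minus strand: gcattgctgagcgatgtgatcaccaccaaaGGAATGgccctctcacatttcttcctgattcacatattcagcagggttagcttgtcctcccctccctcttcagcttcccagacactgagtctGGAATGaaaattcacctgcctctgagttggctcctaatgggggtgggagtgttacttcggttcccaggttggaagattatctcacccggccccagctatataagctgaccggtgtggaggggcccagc
AMOTL2, chr3:134374448-134374697, minus strand: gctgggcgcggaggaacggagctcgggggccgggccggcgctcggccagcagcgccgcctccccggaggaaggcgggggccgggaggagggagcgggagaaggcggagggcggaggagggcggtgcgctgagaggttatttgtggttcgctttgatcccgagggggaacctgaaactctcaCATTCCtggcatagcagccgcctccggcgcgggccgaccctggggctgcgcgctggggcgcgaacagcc
SREBF2, chr22:41832855-41833104, plus strand: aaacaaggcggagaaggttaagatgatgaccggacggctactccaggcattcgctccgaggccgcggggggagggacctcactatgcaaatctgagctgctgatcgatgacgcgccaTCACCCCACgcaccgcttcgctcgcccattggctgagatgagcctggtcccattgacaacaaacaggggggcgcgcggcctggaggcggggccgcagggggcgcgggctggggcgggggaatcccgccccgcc
ATF3, chr1:212565157-212565406, plus strand: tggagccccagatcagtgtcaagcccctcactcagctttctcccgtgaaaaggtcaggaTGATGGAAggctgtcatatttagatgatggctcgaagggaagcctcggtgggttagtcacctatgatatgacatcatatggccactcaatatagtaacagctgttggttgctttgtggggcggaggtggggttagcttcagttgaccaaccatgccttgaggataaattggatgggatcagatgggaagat
The matches began 169, 104 and 95 bases before the start of CTGF, 220 and 128 before ANKRD1, 69 before AMOTL2, 133 before SREBF2 and 191 before ATF3, and none overlapped another. AMOTL2 and ATF3 each have 2 start sites in the table, and the second window of each is not shown. A match is a description of these letters and not evidence of binding. The gene table and the peaks below are on build hg19, so no position was carried from one build to the other.

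The target itself was measured first. IRF2BP2 (NM_182972, hg19 chr1:234740015-234745271, minus strand) read 20.6, 20.04 and 19.3 FPKM in the siNON dex libraries and 9.64, 11.1 and 10.4 FPKM in the siIRF2BP2 dex libraries. All 3 knockdown libraries lay below all 3 controls, with a log2 fold change of -0.94 (SE 0.08, limma adjusted p = 3.44e-06). About as large a change was measured under vehicle, -0.84 (SE 0.08). The knockdown was therefore partial at the RNA level in both treatments. Of its 2 relatives, IRF2BP1 fell, from 21.2, 20.4 and 19.3 to 14.8, 15.4 and 13.4 FPKM (log2 fold change -0.48, SE 0.12, limma adjusted p = 0.00631), and IRF2BPL read 6.22, 6.22 and 5.58 (siNON) and 5.37, 5.62 and 5.18 (siIRF2BP2) FPKM with overlapping groups. VGLL4, the TEAD cofactor known to bind IRF2BP2, had a log2 fold change of 0.00 (SE 0.08).

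Of the 15594 genes tested, 3486 were called higher (22.4%) and 2702 lower (17.3%) after the knockdown under dex, so 39.7% were called in either direction. Most changes were small: 1695 genes rose by at least 0.5 on the log2 scale (10.9%) and 852 fell by at least that (5.46%), while 121 rose by at least 1 (0.776%) and 83 fell by at least 1 (0.532%). In 58.0% of the genes tested the 3 knockdown libraries did not overlap the 3 controls. Without siIRF2BP2 dex replicate 3, the deepest library, 3087 genes were called higher and 1887 lower. The excess of higher over lower calls depended on the processing: median-of-ratios scaling gave 3425 higher and 3346 lower, centring by exon length 3179 and 3337, centring by reads per base 3306 and 3417, and the dex libraries alone without siIRF2BP2 dex replicate 2 gave 3775 and 4020. The authors' deposited table calls 3460 of these genes higher and 3786 lower. With so many genes called, the count for a gene group is read against these shares.

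**Figure D1:**
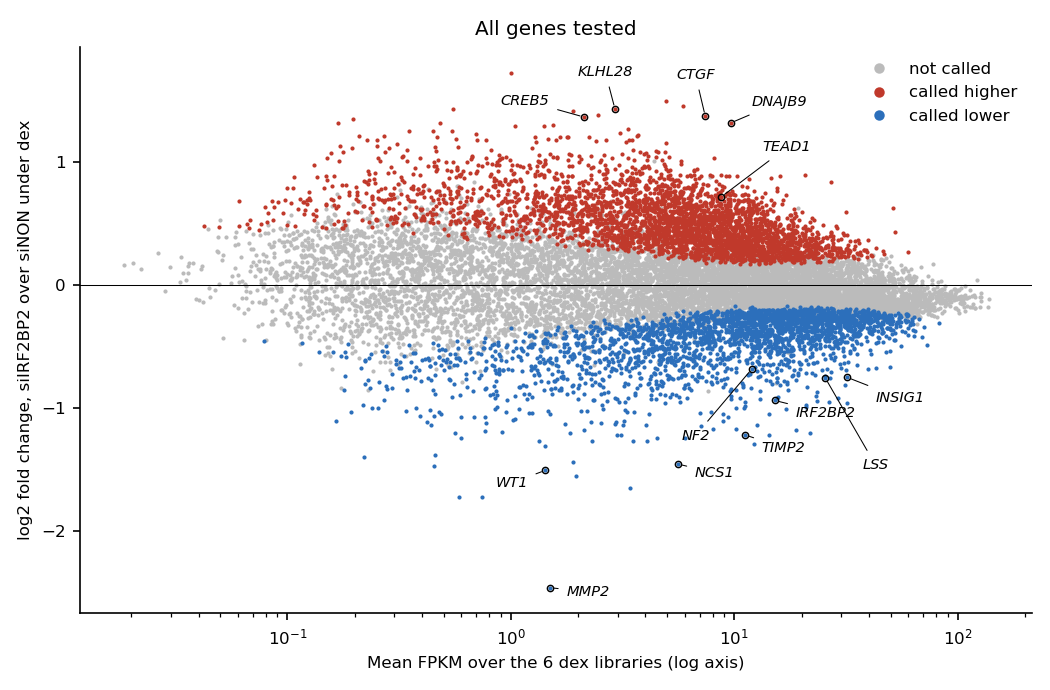
Mean FPKM of each gene tested over the 6 dex libraries (log axis) against its log2 fold change, siIRF2BP2 dex over siNON dex. Red points were called higher and blue points lower. MMP2 lies lowest at -2.46, IRF2BP2 at -0.94.

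The 14 genes that rose most, among protein-coding genes that reached 5 RPM (reads scaled to library size) in at least 1 group and whose groups did not overlap, were KLHL28, SLC7A11, CTGF, CREB5, DNAJB9, SLC16A4, ARRDC3, ZDBF2, ZBED8, SEMA3C, FGF2, CHIC1, SLC4A4 and MYBL1, with log2 fold changes from 1.43 down to 1.18. KLHL28, a kelch family gene, went from 1.58, 1.74 and 1.28 FPKM to 4.87, 3.82 and 4.24 FPKM (limma adjusted p = 0.000467). SLC7A11, the cystine and glutamate exchanger that feeds glutathione synthesis, went from 1.22, 1.4 and 1.32 to 4.01, 3.16 and 3.61 FPKM (limma adjusted p = 0.000449). CREB5, a leucine zipper transcription factor, read 1.1, 1.15 and 1.17 (siNON) and then 3.12, 3.13 and 3.08 (siIRF2BP2) FPKM (SE 0.11, limma adjusted p = 1.77e-06). Every knockdown library was above every control for these genes, by the way they were chosen. The others include ARRDC3, an arrestin family adaptor that turns down membrane receptors (1.99, 2.06 and 1.69 to 4.8, 4.22 and 5.22 FPKM). SEMA3C, a secreted guidance factor, rose from 1.11, 0.967 and 0.814 to 2.48, 2.19 and 2.37 FPKM. FGF2, a fibroblast growth factor, rose from 1.01, 1.18 and 0.915 to 2.75, 2.18 and 2.65 FPKM. CHIC1 (1.27, 1.7 and 1.01 to 3.5, 2.76 and 3.16 FPKM, SE 0.28) and MYBL1, a MYB family transcription factor (1.92, 2.71 and 1.7 to 5.36, 4.31 and 4.86 FPKM, SE 0.19), rose too, and in both 1 control library stood above the others. The SE was 0.23 for KLHL28, 0.22 for SLC7A11 and 0.2 for FGF2.

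**Figure D2:**
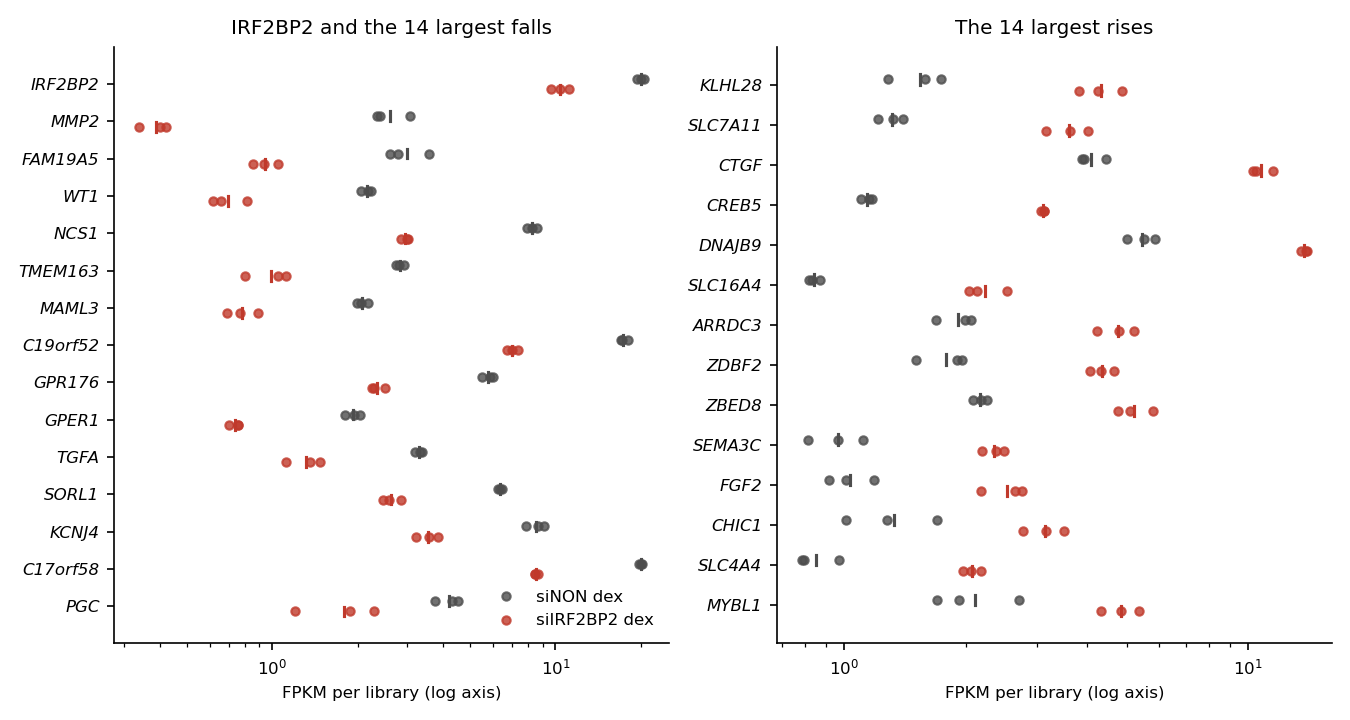
FPKM of each library (log axis) for IRF2BP2 and the 14 largest falls (left) and the 14 largest rises (right), with siNON dex in grey and siIRF2BP2 dex in red. Points are libraries and short bars group means. The groups do not overlap for any gene shown, and MMP2 has the widest gap, from 2.35, 2.39 and 3.05 to 0.401, 0.421 and 0.339 FPKM.

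The 14 genes that fell most by the same rule were MMP2, FAM19A5, WT1, NCS1, TMEM163, MAML3, C19orf52, GPR176, GPER1, TGFA, SORL1, KCNJ4, C17orf58 and PGC, with log2 fold changes from -2.46 to -1.22. WT1, a zinc finger transcription factor of kidney and gonad development, went from 2.18, 2.06 and 2.23 to 0.66, 0.618 and 0.814 FPKM (limma adjusted p = 5.96e-06). NCS1, a neuronal calcium sensor, went from 8.29, 7.95 and 8.57 to 2.84, 3.02 and 2.98 FPKM (limma adjusted p = 1.21e-07), and C17orf58 from 19.8, 20.2 and 20 to 8.45, 8.5 and 8.64 FPKM (limma adjusted p = 1.21e-07). In these last 2 the libraries of a group lay within 1 FPKM of each other. MAML3, a coactivator of Notch receptors, fell from 2.05, 2.0 and 2.17 to 0.767, 0.689 and 0.886 FPKM, and TGFA, a ligand of the EGF receptor, from 3.38, 3.19 and 3.32 to 1.12, 1.36 and 1.47 FPKM. SORL1, a sorting receptor of endosomes, fell from 6.48, 6.26 and 6.35 to 2.47, 2.59 and 2.84 FPKM. Membrane receptors and channels among the 14 were GPR176, an orphan receptor (6.0, 5.52 and 5.85 to 2.24, 2.5 and 2.28 FPKM), GPER1, a G protein-coupled receptor reported to bind estrogen (1.8, 1.94 and 2.04 to 0.703, 0.758 and 0.756 FPKM), and KCNJ4, an inward-rectifier potassium channel (8.65, 7.85 and 9.09 to 3.23, 3.83 and 3.59 FPKM). PGC, which encodes a pepsinogen, was the least even (4.31, 4.52 and 3.74 to 1.88, 1.21 and 2.29 FPKM), and with a pseudocount of 0.01 its adjusted p was 0.0531. The spans of 7 of these 28 genes overlap a gene on the other strand (SLC7A11, DNAJB9, ARRDC3, FGF2, WT1, MAML3 and GPER1), and how strand was counted is not given in the sources used here, so reads of the partner cannot be told apart.

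Collagens form the fibrils and networks of the extracellular matrix, and most of those measured were lower after the knockdown. Of 22 collagen genes tested, 13 fell and 1 rose (59.1% and 4.55%, beside 17.3% and 22.4% of all genes), and the median log2 fold change was -0.41 beside 0.00 for all genes. COL6A1 and COL6A2, chains of the same microfibril, fell together, COL6A1 from 24.03, 23.4 and 24.4 to 13.9, 14.8 and 13.3 FPKM and COL6A2 from 8.55, 7.29 and 8.4 to 4.34, 4.2 and 4.13 FPKM (limma adjusted p = 0.000214 and 0.000604). COL2A1, a fibril collagen of cartilage, fell from 39.2, 37.7 and 40.2 to 24.8, 26.3 and 24.9 FPKM (log2 fold change -0.62, SE 0.10). COL12A1, a collagen that decorates fibrils, was the exception and rose from 0.433, 0.457 and 0.418 to 1.03, 1.13 and 1.18 FPKM (log2 fold change 1.18, SE 0.14, limma adjusted p = 4.63e-05). Between 9 and 13 collagens were lower in every alternative analysis. COL1A1, also a fibroblast marker, fell from 6.43, 6.71 and 7.42 to 4.66, 5.11 and 5.09 FPKM, and the summed level of the 16 markers of blood, endothelial and fibroblast cells was 20.7 to 21.6 FPKM in siNON dex and 16.7 to 17.8 FPKM in siIRF2BP2 dex; their part in the result was not tested.

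Enzymes that cut the matrix and their inhibitors moved both ways. Of 27 tested, 5 were higher and 6 lower (18.5% and 22.2%, beside 22.4% and 17.3% of all genes). MMP2, gelatinase A (hg19 chr16:55513081-55540586), showed the largest change of the genes named here, from 2.35, 2.39 and 3.05 to 0.401, 0.421 and 0.339 FPKM (log2 fold change -2.46, SE 0.16, limma adjusted p = 2.4e-07). TIMP2, which both inhibits MMP2 and helps activate it at the cell surface, fell from 15.2, 15.4 and 16.4 to 6.26, 7.17 and 6.6 FPKM (log2 fold change -1.22, SE 0.10). MMP14, the membrane protease that activates MMP2, rose from 0.345, 0.57 and 0.572 to 1.04, 1.13 and 1.03 FPKM, and its relative MMP15 fell from 12.6, 12.9 and 13.3 to 9.39, 9.49 and 8.92 FPKM. Integrins are the cell surface receptors for matrix. Of 16 tested, 7 were higher and 3 lower (43.8% and 18.8%, beside 22.4% and 17.3% of all genes). Among the rises were ITGA2 (2.58, 2.49 and 2.51 to 4.65, 3.92 and 4.51 FPKM) and ITGB8 (0.18, 0.255 and 0.234 to 0.548, 0.457 and 0.504 FPKM). That integrin count was 3 higher and 0 lower without siNON dex replicate 3 and 4 higher and 2 lower without siIRF2BP2 dex replicate 2. With libraries centred by exon length it was 3 higher and 4 lower.

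**Figure D3:**
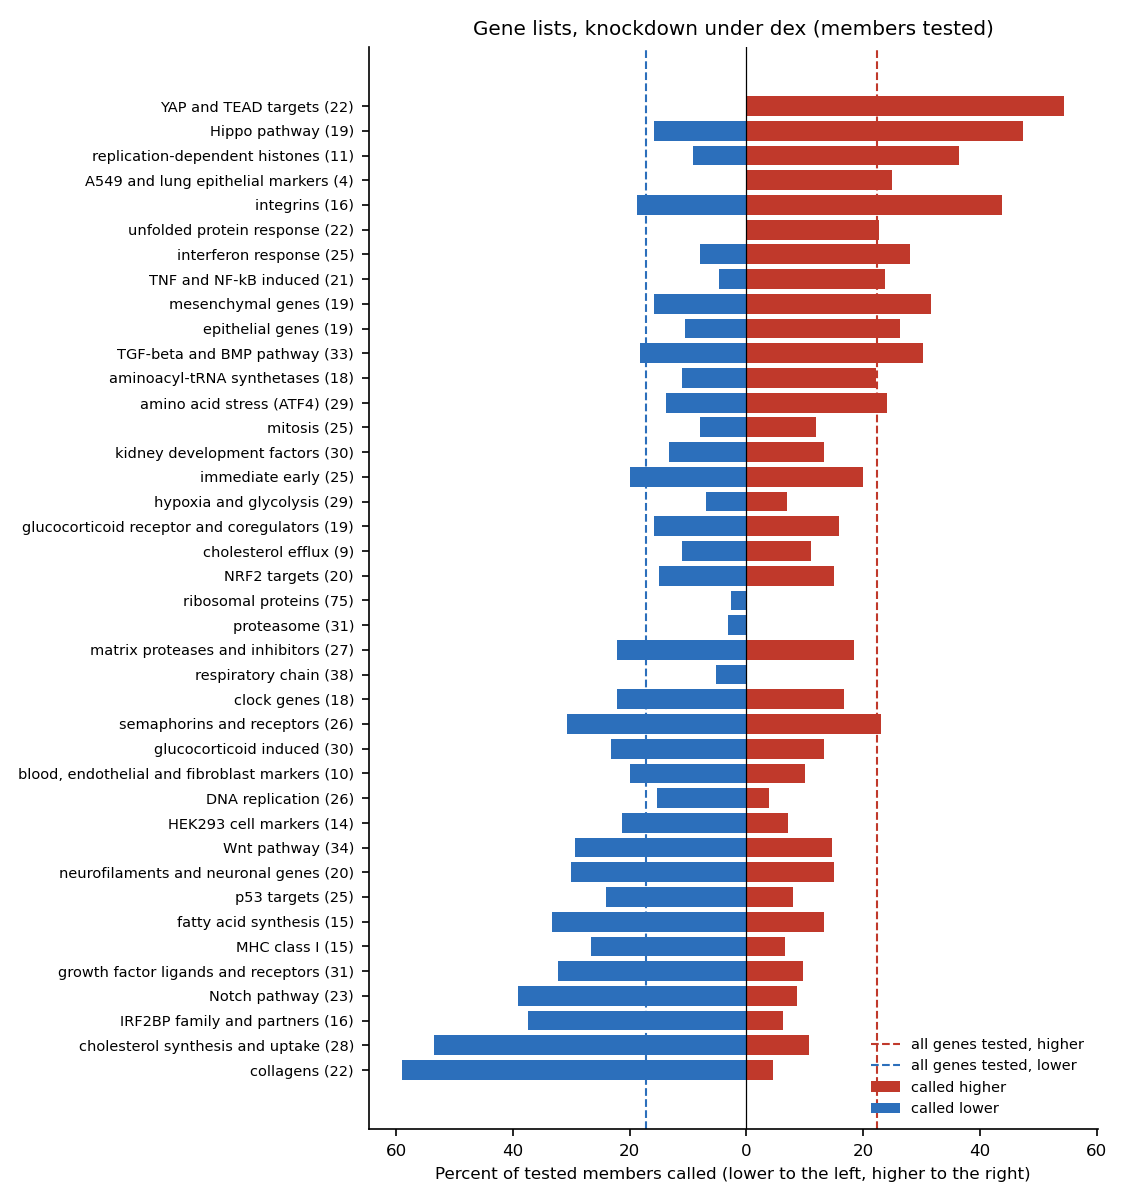
Share of tested members of each gene list called lower (blue, left) or higher (red, right) after the knockdown under dex, with the number tested in parentheses. Dashed lines mark the shares among all genes tested, 17.3% lower and 22.4% higher. Collagens and cholesterol genes have the largest shares lower, and YAP and TEAD targets the largest share higher.

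In the Hippo pathway a kinase cascade (MST and LATS kinases, helped by the scaffold NF2) keeps the coactivators YAP1 and WWTR1 (TAZ) out of the nucleus, where they would otherwise work with TEAD factors on target genes such as CTGF. Of 22 YAP and TEAD targets tested, 12 rose and 0 fell by the limma test (54.5% higher beside 22.4% of all genes; 0 lower at an unadjusted p under 0.05, 0 lower with voom on recovered reads), and the list had a median log2 fold change of 0.25. CTGF rose from 3.87, 4.45 and 3.92 to 10.3, 11.5 and 10.4 FPKM (hg19 chr6:132269317-132272518, log2 fold change 1.38, SE 0.11, limma adjusted p = 1.57e-06). ANKRD1, a muscle and stress related cofactor named here after its value was seen, rose from 0.176, 0.556 and 0.461 to 0.963, 0.949 and 1.09 FPKM, and CYR61, the relative of CTGF, from 5.44, 5.56 and 5.07 to 7.25, 6.93 and 7.8 FPKM. AMOTL2, an angiomotin that restrains YAP1, rose from 1.9, 1.66 and 1.71 to 2.82, 3.24 and 3.15 FPKM. LATS2, a kinase that is also a YAP target, rose from 1.97, 1.81 and 1.74 to 2.68, 3.0 and 3.44 FPKM, and RBMS3, an RNA-binding protein, from 1.29, 1.25 and 1.18 to 2.7, 2.45 and 2.45 FPKM. For each of these 6 genes all knockdown libraries lay above all controls, which the way they were chosen favours. ANKRD1 and CYR61 were picked after their values were seen, and the other 4 for the smallest p of the list. Of all genes tested, 58.0% had groups that did not overlap. The target count stayed between 9 and 13 higher in every alternative. The median, however, was 0.09 after libraries were centred by exon length and then by reads per base (an alternative chosen after the data were seen). The median exon length of the list is 4711 bases, beside 2972 for all genes. Of the 16 targets with a RefSeq promoter window, 8 held GGAATG or its complement in the 250 bases before a start, as did 14.3% of the 27305 genes in that table.

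Of 19 genes of the core of the pathway, 9 were higher and 3 lower (47.4% and 15.8%, beside 22.4% and 17.3% of all genes). NF2 fell from 14.7, 14.5 and 15.2 to 8.88, 9.5 and 9.24 FPKM (log2 fold change -0.68, SE 0.09, limma adjusted p = 0.000116). TEAD1 rose from 6.67, 6.85 and 6.21 to 10.6, 10.8 and 11.3 FPKM (log2 fold change 0.72, SE 0.10, limma adjusted p = 0.000185). YAP1, named after its value was seen, went from 10.3, 10.1 and 9.18 to 12.8, 13.3 and 12.8 FPKM (log2 fold change 0.39) and WWTR1 from 7.54, 7.82 and 7.12 to 9.09, 10.5 and 10.1 FPKM (log2 fold change 0.39), both called higher. LATS1, an opposing kinase, also rose, from 7.62, 7.36 and 6.54 to 9.59, 10.1 and 10.2 FPKM. The genes of this list are long, with a median exon length of 6070 bases. Of all genes tested with 5000 to 8000 bases of exon, 36.3% were higher. After centring by exon length and reads per base 8 of the list were higher and 3 lower, and its median log2 fold change went from 0.28 to 0.07.

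Genes of cholesterol synthesis and uptake were mostly lower or not called. They are driven by SREBP2, the product of SREBF2, which INSIG proteins hold in the endoplasmic reticulum when sterols are plentiful. Of 28 genes tested, 15 fell and 3 rose (53.6% and 10.7%, beside 17.3% and 22.4% of all genes). The list had a median log2 fold change of -0.26 and a median of 0.495 reads per base. Of all genes tested with 0.3 to 0.6 reads per base, 26.8% were lower and 16.3% higher. After centring by exon length and reads per base 17 of the list were lower and 2 higher. LSS, lanosterol synthase, fell from 31.2, 32.4 and 32.3 to 19.2, 19.4 and 18.3 FPKM (log2 fold change -0.75, SE 0.07, limma adjusted p = 3.31e-06). INSIG1 fell from 41.3, 39.7 and 38.6 to 23.7, 25.4 and 22.1 FPKM, and MVD, a mevalonate pathway decarboxylase, from 15.5, 16.5 and 17.4 to 10.2, 10.4 and 9.96 FPKM. In each of these 3, named for their small p, the groups did not overlap, as in 58.0% of all genes tested. Other members were picked after their values were seen. SREBF2 itself fell from 30.7, 29.3 and 31.7 to 19.7, 20.6 and 19.9 FPKM (log2 fold change -0.60, limma adjusted p = 0.000189), and SQLE, squalene epoxidase, fell from 38.4, 36.9 and 38.2 to 29.6, 30.8 and 27.1 FPKM. The synthase HMGCS1 read 18.5, 17.6 and 17.3 (siNON) and 17.3, 17.6 and 15.3 (siIRF2BP2) FPKM and did not pass the test (log2 fold change -0.09, SE 0.08). STARD4, a sterol carrier, went the other way, from 6.13, 5.85 and 4.67 to 10.2, 10.2 and 10.4 FPKM. Between 11 and 18 members were lower in every alternative. Of the 21 members with a promoter window, only SREBF2 held TCACNCCAC, which 1.09% of genes hold.

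Fatty acid genes are under the related factor SREBP1. Of 15 tested, 5 were lower and 2 higher (33.3% and 13.3%, beside 17.3% and 22.4% of all genes). FASN, fatty acid synthase, fell from 85.8, 83.7 and 84.5 to 61.98, 67.4 and 52.5 FPKM, and FADS2, a desaturase, from 57.9, 57.5 and 57.7 to 45.4, 47.97 and 38.5 FPKM. ELOVL6, an elongase, rose from 5.44, 5.7 and 5.38 to 7.8, 7.67 and 7.38 FPKM, as did the acyltransferase GPAM. The lower count was 3 without siNON dex replicate 1 or 3 or siIRF2BP2 dex replicate 1 or 3. It was 10 with library weights, 10 after centring by exon length and reads per base, and 9 in the dex libraries alone without siIRF2BP2 dex replicate 2 or 3. FASN and FADS2 have over 1 read per base, and the value of FASN was lowest in the deepest library. Of 9 genes of cholesterol efflux, ABCA1 alone rose and APOE alone fell, and the calls were lost in 16 of 28 and 11 of 32 alternatives; ABCA1 had only 5 to 19 reads per library.

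In the stress programmes of the endoplasmic reticulum and of amino acid supply, single genes rose. The share of genes higher was near that of all genes, but both lists were more densely covered than genes at large. The unfolded protein response restores folding capacity through chaperones and degradation factors, and 5 of its 22 genes rose and 0 fell by the limma test (0 lower at an unadjusted p under 0.05, 0 lower with voom on recovered reads), which is 22.7% higher beside 22.4% of all genes. DNAJB9, a chaperone induced by the XBP1 branch, rose from 5.52, 5.88 and 5.0 to 13.97, 13.9 and 13.5 FPKM (log2 fold change 1.32, SE 0.13, limma adjusted p = 6.67e-06). Its partners in disposal of misfolded proteins, SEL1L (9.37, 9.38 and 9.59 to 15.2, 14.7 and 14.04 FPKM) and EDEM1 (10.6, 9.46 and 9.98 to 14, 14.03 and 13.6 FPKM), rose too, as did the cochaperone DNAJC3. HSPA5, the main chaperone and chosen here after its value was seen, read 53.4, 51.5 and 51.7 (siNON) and 49.8, 53.5 and 41.8 (siIRF2BP2) FPKM and did not pass the test (log2 fold change -0.12, SE 0.09), at 1.07 reads per base. The higher count was 8 without siIRF2BP2 dex replicate 3 and 14 after centring by reads per base. This list had a median of 0.871 reads per base, beside 0.157 for all genes. Of all genes with 0.6 to 1 reads per base, 4.24% were higher and 23.8% lower. The share of all genes is therefore not a like comparison for this list.

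ATF4 is the transcription factor of the amino acid response. On its list 7 of 29 genes rose and 4 fell (24.1% and 13.8%, beside 22.4% and 17.3% of all genes). The list had a median of 0.5 reads per base. Of all genes with 0.3 to 0.6 reads per base, 16.3% were higher and 26.8% lower. After centring by exon length and reads per base 11 of the list were higher and 4 lower. DDIT3, which encodes CHOP, rose from 9.94, 10.1 and 10.7 to 18.7, 18.97 and 18.8 FPKM (log2 fold change 0.87, limma adjusted p = 3.13e-05), and INHBE, an inhibin subunit, from 4.99, 4.27 and 6.78 to 10.6, 11.7 and 10.5 FPKM. Amino acid carriers on this list did not move together. SLC7A11 rose as given above, whereas SLC7A1, a carrier of cationic amino acids, fell from 30.1, 28.8 and 32.2 to 15.4, 18.03 and 16.3 FPKM and SLC7A5, a carrier of large neutral ones, from 22.1, 21.2 and 24.7 to 13.2, 14.2 and 13.2 FPKM. ATF4 itself (chosen after its value was seen) had a log2 fold change of -0.11 (SE 0.11). Of the 22 list members with a promoter window, 5 held TGATGNAA, as did 3.89% of genes. Aminoacyl-tRNA synthetases, which load tRNAs and are partly under ATF4, had 4 of 18 members higher, including LARS and EPRS, and 2 lower, VARS and HARS. Without siIRF2BP2 dex replicate 1, 1 was higher and 2 were lower, and after centring by exon length and reads per base 7 were higher and 3 lower. This list had a median of 1.01 reads per base, where FPKM is compressed. VARS had 1.13 and HARS 0.835, both were lowest in the deepest library, and HARS lost its call in 7 of 32 alternatives. Targets of NRF2, the oxidant response factor, had 3 of 20 higher and 3 lower, with GCLM up from 8.83, 8.7 and 8.23 to 11.7, 12.2 and 12.2 FPKM.

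Genes that glucocorticoids are known to induce were examined as a group since GR was active in both arms. Of 30 tested, 7 fell and 4 rose (23.3% and 13.3%, beside 17.3% and 22.4% of all genes), and the median log2 fold change was -0.16. CDKN1C, a cell cycle inhibitor, fell from 30.2, 25.9 and 26.8 to 15.9, 14.2 and 12.1 FPKM (log2 fold change -0.97, SE 0.18, limma adjusted p = 0.000867). RASD1, a small G protein, fell from 29.03, 27.4 and 29.7 to 17.6, 17.4 and 16.9 FPKM, SCNN1A, a sodium channel subunit, from 1.12, 0.959 and 0.992 to 0.556, 0.529 and 0.497 FPKM, and CRISPLD2, a secreted protein, from 1.55, 1.19 and 1.67 to 0.785, 0.935 and 0.667 FPKM. The last 3 showed log2 fold changes of -0.09, -0.07 and 0.11 under vehicle, and the test of the difference between treatments gave adjusted p of 0.794, 0.718 and 0.513 (limma), so no difference was established. For 3 widely used GR targets, picked after their values were seen, coverage was in the range where FPKM is compressed. FKBP5, TSC22D3 and PER1 had 1.14, 2.04 and 1.03 reads per base. TSC22D3 had 3769 to 4216 reads in libraries of 18.2 to 28.5 M tags. The 3 genes did not pass the test, and neither a change nor its absence is read from their values. FKBP5, a GR cochaperone, read 56.2, 54.6 and 54.6 (siNON) and 52.97, 55.8 and 45.04 (siIRF2BP2) FPKM (log2 fold change -0.11, SE 0.08), TSC22D3, known as GILZ, 100.0, 96.2 and 100.2 (siNON) and 96.6, 106 and 75.9 (siIRF2BP2) FPKM (-0.10, SE 0.13), and the clock gene PER1 49.9, 50.5 and 51.1 (siNON) and 45.2, 49.3 and 41.5 (siIRF2BP2) FPKM (-0.16, SE 0.11). The lower count of the list was 12 with library weights and 14 in the dex libraries alone without siIRF2BP2 dex replicate 2. The higher count fell to 0 after centring by exon length and reads per base, where 9 members were lower.

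The receptor gene NR3C1 read 33.5, 32.03 and 32.5 (siNON) and 34.3, 36.9 and 28.8 (siIRF2BP2) FPKM with a log2 fold change of 0.02 (SE 0.09), also picked after its value was seen. Of 19 genes of the receptor and its coregulators 3 rose and 3 fell (15.8% each, beside 22.4% higher and 17.3% lower among all genes). NCOA2, a steroid receptor coactivator, rose from 4.77, 4.82 and 5.01 to 7.91, 7.93 and 7.95 FPKM, and NRIP1, a corepressor, from 2.23, 2.36 and 1.87 to 4.45, 3.72 and 3.48 FPKM. HSD11B2, the enzyme that inactivates cortisol, fell from 6.11, 5.92 and 6.36 to 3.44, 3.48 and 3.55 FPKM (log2 fold change -0.79, limma adjusted p = 7.56e-05), and the remodeller SMARCA4 from 50.5, 49.3 and 51.7 to 39.8, 43.5 and 36.2 FPKM. SMARCA4 had 0.966 reads per base, was lowest in the deepest library and lost its call in 4 of 32 alternatives. Of 16 genes of the IRF2BP family and its partners, 6 were lower and 1 higher; IRF2BP2 is 1 of the 6, and EHMT1, a histone methyltransferase, fell from 13.2, 12.8 and 14.2 to 9.1, 9.81 and 9.49 FPKM. Clock genes, several of which are GR targets, had 3 of 18 higher and 4 lower (16.7% and 22.2%). DBP, an output factor of the clock, fell from 5.55, 5.94 and 5.2 to 2.9, 3.1 and 2.66 FPKM and its relative TEF from 6.16, 5.96 and 6.61 to 4.26, 4.33 and 4.44 FPKM, while the repressor NR1D2 rose from 6.82, 6.74 and 5.98 to 11.8, 11.4 and 11.1 FPKM and CLOCK from 2.14, 2.33 and 1.93 to 4.64, 3.77 and 3.83 FPKM.

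Inflammatory genes, which GR is known to repress, were sparsely expressed, and 21 of 28 TNF and NF-kB induced genes could be tested. Of these 5 rose and 1 fell (23.8% and 4.76%, beside 22.4% and 17.3% of all genes). CXCL8, a neutrophil chemokine, read 0.087, 0.112 and 0.056 (siNON) and 0.228, 0.419 and 0.268 (siIRF2BP2) FPKM from 2 to 13 reads per library, and CXCL2 0.33, 0.317 and 0.358 (siNON) and 0.527, 0.687 and 0.673 (siIRF2BP2) FPKM. BIRC3, an inhibitor of apoptosis, rose from 1.95, 1.89 and 1.57 to 3.52, 2.62 and 2.58 FPKM, and TNFAIP3, a brake on NF-kB, from 3.32, 3.29 and 3.8 to 4.19, 4.6 and 4.45 FPKM. The higher count was 3 without siNON dex replicate 1 or 3 or siIRF2BP2 dex replicate 2 or 3, and 2 among genes with at least 50 reads. After centring by exon length and reads per base 3 were higher and 3 lower, and in the dex libraries alone without siIRF2BP2 dex replicate 2, 4 were higher and 5 lower, so no direction is given for this list. Interferon response genes had 7 of 25 higher and 2 lower (28.0% and 8.0%, beside 22.4% and 17.3% of all genes). IFI35 rose from 6.88, 6.16 and 7.91 to 10.5, 10.1 and 11.1 FPKM and ISG20, an exonuclease, from 1.72, 2.05 and 1.55 to 2.86, 3.46 and 3.02 FPKM, whereas the transducer STAT2 fell from 11.1, 10.9 and 11.1 to 7.76, 8.43 and 8.2 FPKM and the regulator IRF7 from 2.3, 2.74 and 2.69 to 1.78, 1.18 and 1.36 FPKM. That higher count was 4 without siNON dex replicate 1, 3 without siIRF2BP2 dex replicate 1, 3 after centring by exon length and reads per base, and 11 with library weights. In antigen presentation by MHC class I, 4 of 15 genes fell and 1 rose (26.7% and 6.67%). HLA-F fell from 16.8, 17.2 and 18.8 to 13.1, 12.6 and 12.4 FPKM and the transporter TAP1 from 19.3, 18.2 and 19.5 to 14.9, 15.1 and 14.7 FPKM, and the trimming peptidase ERAP1 rose from 4.36, 4.37 and 4.07 to 5.3, 5.75 and 5.67 FPKM. The lower count was 2 without siNON dex replicate 3. HLA class I genes are related in sequence, so some reads can be split between them.

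Immediate early genes, which respond within minutes to stimuli, had 5 of 25 higher and 5 lower. Each share was 20.0%, beside 22.4% higher and 17.3% lower among all genes. The list had a median log2 fold change of -0.12, and after centring by exon length and reads per base 4 were higher and 6 lower. The members named here, for the smallest p, all rose, so they do not stand for the list. KLF6 rose from 6.58, 6.14 and 6.87 to 9.49, 9.76 and 9.63 FPKM (limma adjusted p = 0.0001), and so did the AP-1 family genes ATF3 (12.96, 12.7 and 14.1 to 17.8, 20.6 and 18.1 FPKM), FOSL2 (5.37, 5.86 and 5.85 to 7.71, 8.47 and 8.64 FPKM) and FOSB (0.891, 1.03 and 0.898 to 1.44, 1.7 and 1.65 FPKM). Targets of p53 had 6 of 25 lower and 2 higher. PHLDA3, an inhibitor of AKT, fell from 21.9, 20.4 and 20.9 to 14.5, 13.4 and 13.3 FPKM, and FDXR, BBC3 and DDB2 fell by 0.48, 0.59 and 0.30 on the log2 scale.

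Among developmental signalling families, the Notch, Wnt and growth factor lists had more members lower than higher. In the Notch pathway a ligand on one cell engages a receptor on the next, which is then cut by proteases of the receiving cell. Of 23 Notch genes tested 9 fell and 2 rose (39.1% and 8.7%, beside 17.3% and 22.4% of all genes). The list had a median log2 fold change of -0.08, and of 0.01 without siIRF2BP2 dex replicate 1. NOTCH3 fell from 4.09, 4.32 and 4.53 to 1.94, 2.51 and 2.11 FPKM, the ligand JAG2 from 8.95, 8.78 and 8.49 to 5.08, 5.14 and 5.29 FPKM, and the factor HES6 from 11.8, 11.5 and 10.4 to 6.83, 6.93 and 6.87 FPKM (limma adjusted p = 0.000866, 0.000469 and 0.000151). These joined the coactivator MAML3 among the falls. In the Wnt pathway 10 of 34 fell and 5 rose (29.4% and 14.7%). SFRP1, a secreted antagonist, fell most clearly, from 10.7, 11.2 and 11.4 to 4.4, 5.31 and 4.98 FPKM (log2 fold change -1.17, SE 0.10, limma adjusted p = 1.77e-06). The receptor FZD4 fell from 5.11, 4.84 and 5.27 to 3.12, 3.16 and 3.55 FPKM, while FZD6 rose from 8.82, 8.7 and 7.1 to 16.02, 14.7 and 14.2 FPKM and the ligand WNT5A from 5.02, 4.91 and 4.52 to 7.15, 7.27 and 7.42 FPKM.

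Growth factor ligands and receptors had 10 of 31 lower and 3 higher (32.3% and 9.68%, beside 17.3% and 22.4% of all genes). FGFR3 went down from 5.89, 6.07 and 6.21 to 3.39, 3.27 and 3.02 FPKM and PDGFA, a platelet-derived growth factor, from 15.3, 14.1 and 14.7 to 7.45, 7.99 and 7.3 FPKM, beside TGFA lower and FGF2 higher as above. After centring by exon length and reads per base 16 were lower and 3 higher. In the TGF-beta and BMP pathway 10 of 33 rose and 6 fell (30.3% and 18.2%). TGFB1 fell from 20.03, 19.4 and 19.3 to 12.96, 14.1 and 11.2 FPKM and the SMAD repressor SKI from 28.4, 26.3 and 26.5 to 15.04, 16.1 and 14.4 FPKM (log2 fold change -0.83, limma adjusted p = 5.22e-05). The ligand GDF11 fell too, and the coreceptor TGFBR3 rose from 6.17, 5.99 and 5.83 to 7.98, 8.33 and 8.52 FPKM. After centring by exon length and reads per base this list had 7 higher and 9 lower, so its lean depended on that choice. Semaphorins and their receptors had 8 of 26 lower and 6 higher (30.8% and 23.1%). SEMA3F (3.79, 4.13 and 4.92 to 2.52, 2.48 and 2.21 FPKM), SEMA4F (7.48, 7.47 and 8.77 to 4.9, 5.15 and 5.31 FPKM) and the receptor NRP2 (3.26, 2.97 and 3.51 to 1.58, 2.1 and 1.94 FPKM) fell, opposite to SEMA3C. Their lower count was 4 without siNON dex replicate 3 or without siIRF2BP2 dex replicate 1, with 6 higher, and it was 13 with library weights and 15 after centring by exon length and reads per base.

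Lineage and adhesion genes shifted without a common direction. Among epithelial genes 5 of 19 rose and 2 fell (26.3% and 10.5%, beside 22.4% and 17.3% of all genes). KRT17 rose from 5.56, 5.19 and 6.86 to 9.7, 12.3 and 9.88 FPKM. E-cadherin, CDH1, fell from 7.86, 6.9 and 7.51 to 4.13, 4.49 and 5.0 FPKM. After centring by exon length and reads per base 3 were higher and 5 lower. Among mesenchymal genes 6 of 19 rose and 3 fell (31.6% and 15.8%). ZEB1 and ZEB2, repressors of E-cadherin, both rose, ZEB1 from 1.62, 1.82 and 1.5 to 4.26, 3.12 and 3.29 FPKM and ZEB2 from 1.02, 0.961 and 1.06 to 2.22, 2.2 and 2.14 FPKM, while TWIST2 fell from 4.5, 4.67 and 4.25 to 2.01, 2.38 and 2.03 FPKM. Kidney development factors had 4 of 30 higher and 4 lower, WT1 being the largest fall and EYA1 the clearest rise (1.74, 1.66 and 1.8 to 2.83, 2.6 and 2.46 FPKM). Of 20 neuronal genes, which HEK293 cells are known to express, 6 fell and 3 rose. STMN3, a microtubule destabiliser, fell from 11.7, 11.3 and 12.9 to 5.46, 5.9 and 5.84 FPKM (log2 fold change -1.05, SE 0.09), and ELAVL2, an RNA-binding protein, rose from 3.27, 3.55 and 2.97 to 6.56, 6.72 and 6.19 FPKM. Of the 14 HEK293 markers, ZIC5 rose from 3.96, 3.81 and 3.4 to 5.63, 5.8 and 5.77 FPKM, and NEFL, TUBB3 and CDH2 fell by 0.41, 0.48 and 0.25 on the log2 scale.

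Few genes of DNA replication and mitosis were called, but both lists were more densely covered than genes at large. Of 26 DNA replication genes 4 fell and 1 rose, and of 25 mitotic genes 3 rose and 2 fell. The lists had medians of 0.841 (replication) and 0.749 (mitosis) reads per base, beside 0.157 for all genes. Of all genes with 0.6 to 1 reads per base, 4.24% were higher and 23.8% lower, beside 22.4% and 17.3% of all genes. The share of all genes is therefore not a like comparison for these lists. Cyclin E2, CCNE2, rose from 8.05, 10.04 and 7.31 to 14.9, 13.8 and 12.2 FPKM, while the replication helicase subunit GINS3 fell from 21.3, 22.1 and 21.5 to 13.8, 15.9 and 15.2 FPKM. The replication counts depended on single libraries and on scaling: 5 were higher and 2 lower without siIRF2BP2 dex replicate 3, 1 and 7 without siIRF2BP2 dex replicate 2, 1 and 2 without any 1 of the siNON dex libraries, 6 and 5 with upper-quartile scaling, and 10 and 6 after centring by exon length and reads per base. The mitotic counts were 6 higher and 1 lower without siIRF2BP2 dex replicate 3, 3 and 5 with median-of-ratios scaling, and 8 and 4 after the same centring, so no direction is given for either list. Hypoxia and glycolysis genes had 2 of 29 called in each direction, with PDK1 up from 5.0, 4.34 and 4.29 to 6.84, 7.2 and 7.29 FPKM and ALDOC down from 5.93, 6.1 and 5.99 to 3.75, 3.91 and 3.65 FPKM. Among 11 replication-dependent histone genes, whose transcripts mostly lack poly(A) tails and are recovered poorly by poly(A) selection, 4 were higher and 1 lower. HIST1H2BC read 0.566, 0.435 and 0.219 (siNON) and 1.0, 1.51 and 2.25 (siIRF2BP2) FPKM, and HIST3H2A fell from 17.1, 13.1 and 14.02 to 7.38, 7.89 and 6.61 FPKM. That higher count was 2 without siNON dex replicate 3 or siIRF2BP2 dex replicate 1.

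Ribosomal proteins (0 higher and 2 lower of 75 by limma), proteasome subunits (0 and 1 of 31) and the respiratory chain (0 and 2 of 38) were the lists with the smallest shares called. At an unadjusted p under 0.05 they had 0, 0 and 1 genes higher, and with voom on recovered reads 0, 0 and 0. Their genes had a median of 1.99, 1.26 and 1.07 reads per base, in the range where FPKM is compressed. The deepest library, siIRF2BP2 dex replicate 3, read lowest for them. RPS14, for example, read 87.8, 86.1 and 85.5 FPKM in the controls and 78.2, 87.5 and 63.05 FPKM in the knockdown libraries. Without that library 3 respiratory chain genes and 3 proteasome genes were higher and none lower. After centring by exon length and reads per base 11, 16 and 18 genes of the respiratory chain, proteasome and ribosome were higher and 1, 3 and 4 lower, so no direction is given for these families.

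The log2 fold change moved with 2 measures that are not functions of a gene. Genes with up to 1000 bases of exon had a median log2 fold change of -0.08, with 9.05% higher and 15.2% lower. Genes over 8000 bases had a median of 0.21, with 40.1% higher and 11.1% lower. In that longest class the median deviation from the mean of the 6 libraries was 0.083, 0.12 and 0.097 in the siIRF2BP2 dex libraries and -0.091, -0.107 and -0.117 in the controls, so the groups did not overlap. Under vehicle the same classes had medians of -0.07 and 0.16. Coverage went with the sign as well, from a median of 0.12 in genes with up to 0.01 reads per base to -0.14 in genes with 1 to 1.5. In the densest class, over 1.5 reads per base, siIRF2BP2 dex replicate 3 deviated by -0.328, while replicates 1 and 2 of the same group deviated by 0.019 and 0.142. The part of exon length and coverage in the counts of gene groups was not tested beyond the centred analyses given above.

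**Figure D4:**
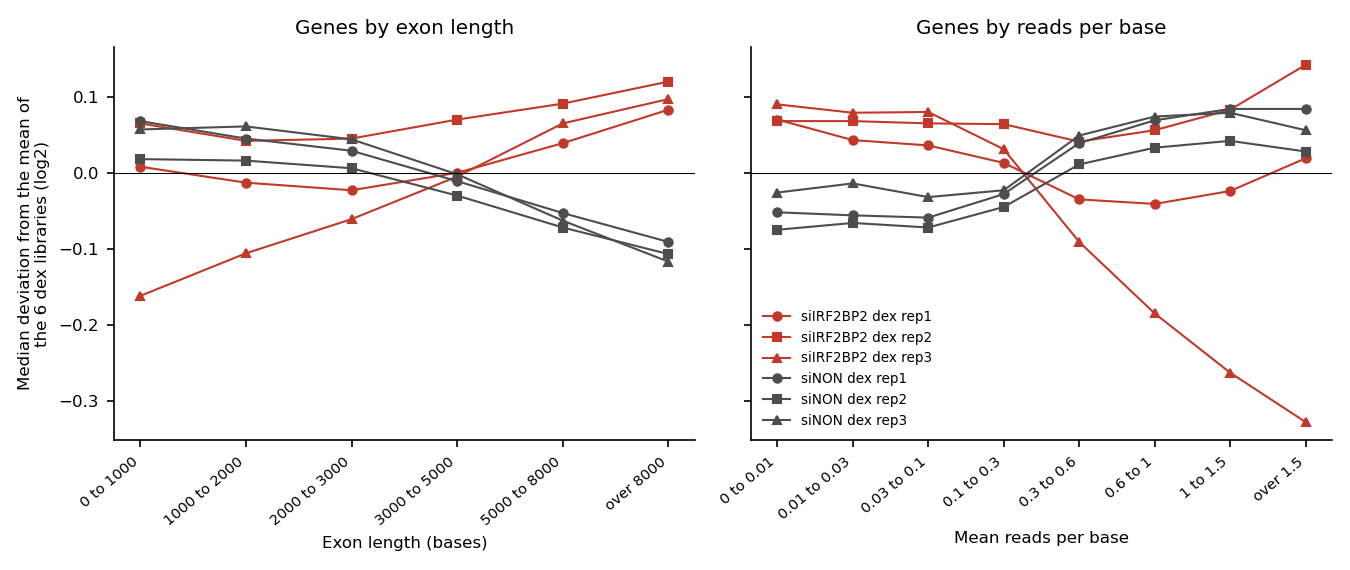
Median deviation of each library from the mean of the 6 dex libraries (log2 scale) for genes grouped by exon length (left) and by mean reads per base (right); red lines are siIRF2BP2 dex, grey lines siNON dex, and markers the replicates. Knockdown libraries lie above controls for exons over 5000 bases, and siIRF2BP2 dex replicate 3 drops to -0.328 in the densest genes.

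The series also holds IRF2BP2 binding sites from chromatin immunoprecipitation in the same line after 1 h of dex (1400 peaks of 332 bases) or vehicle (1108 peaks of 343 bases). Genes near a dex peak were called about as often as genes at large. Of 43 tested genes with a dex peak centre within 1 kb of the gene start 12 were higher and 9 lower (27.9% and 20.9%), of 226 within 10 kb 53 and 43 (23.5% and 19.0%), and of 912 within 50 kb 190 and 154 (20.8% and 16.9%), beside 22.4% and 17.3% of all genes. The 6 called genes with the smallest p within 1 kb were TEAD1, AMOTL2, NAT1, ATF3, FAM221A and OGDH. For TEAD1 the peak at hg19 chr11:12695813-12696144 is centred 10 bases from the gene start, and the first base of the gene lies inside it. For AMOTL2 the peak at hg19 chr3:134093135-134093466 spans the gene start too, 126 bases from its centre, and for ATF3 the peak at hg19 chr1:212781844-212782175 is centred 40 bases away. These 3 genes and OGDH, a mitochondrial dehydrogenase, also had a vehicle peak within 1 kb, while NAT1 and FAM221A did not. NAT1, an arylamine acetyltransferase, rose from 4.28, 4.62 and 3.82 to 6.63, 5.99 and 6.2 FPKM, and FAM221A from 5.17, 3.88 and 4.09 to 6.16, 7.49 and 6.39 FPKM. OGDH was the fall among the 6, from 26.8, 27.4 and 28.4 to 21.3, 22.8 and 20.9 FPKM. Of the 28 genes with the largest changes, FGF2 had the nearest dex peak, 16.4 kb from its start.

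The knockdown was compared with the same knockdown under vehicle, which shares no library with it. Under vehicle 1247 genes were called higher (8.0%) and 1167 lower (7.48%). Vehicle libraries had a median deviation from their group of 0.093 to 0.19 on the log2 scale. Of the genes higher under dex 27.8% were also higher under vehicle, which is 77.7% of the vehicle list. Of the genes lower under dex 38.9% were also lower under vehicle, or 90.1% of that list. Among the 28 genes with the largest changes, 11 of 14 rises and 12 of 14 falls were also called under vehicle. MMP2 had log2 fold changes of -2.46 and -2.12, and CTGF of 1.38 and 1.03, under dex and vehicle. All 28 changed more under dex, but they were selected on their dex value. GPER1 had -1.27 under dex and -0.23 under vehicle, and its difference between treatments had a limma adjusted p of 0.24.

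Of the 15594 genes, 2 had a knockdown effect that differed between dex and vehicle at an adjusted p under 0.05 (0.0128%), and 805 (5.16%) had an unadjusted p under 0.05. PDGFA read 1.29, 1.27 and 0.96 FPKM in siNON vehicle and 1.36, 1.35 and 1.88 FPKM in siIRF2BP2 vehicle. Under dex it read 15.3, 14.1 and 14.7 (siNON) and then 7.45, 7.99 and 7.3 (siIRF2BP2) FPKM. The knockdown effect was thus 0.35 (SE 0.13) under vehicle and -0.95 (SE 0.13) under dex, a difference of -1.30 (SE 0.19, limma adjusted p = 0.0358). SLC2A3, a glucose transporter, read 6.72, 6.37 and 5.72 (siNON) and 8.59, 8.32 and 9.53 (siIRF2BP2) FPKM with the 2 siRNAs under vehicle, and 35.5, 33.8 and 35.3 (siNON) and 28.1, 30.9 and 25.6 (siIRF2BP2) FPKM under dex. Its effects of 0.48 and -0.31 had opposite signs and each passed its own test, with a difference of -0.79 (SE 0.12, limma adjusted p = 0.0358). Both differences were lost when any 1 of the 6 dex libraries was left out, when 0 genes passed the test. SLC2A3 had 0.674 reads per base in the dex libraries and was lowest in the deepest library, siIRF2BP2 dex replicate 3. Genes with 0.6 to 1 reads per base had a median log2 fold change of -0.12 under dex. The part of FPKM compression in the SLC2A3 effect was not tested. The chemokines CXCL8 and CXCL2 had larger effects under vehicle (1.93 and 1.66) than under dex (1.11 and 0.74), with adjusted p of 0.794 and 0.486 for the difference (limma).

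**Figure D5:**
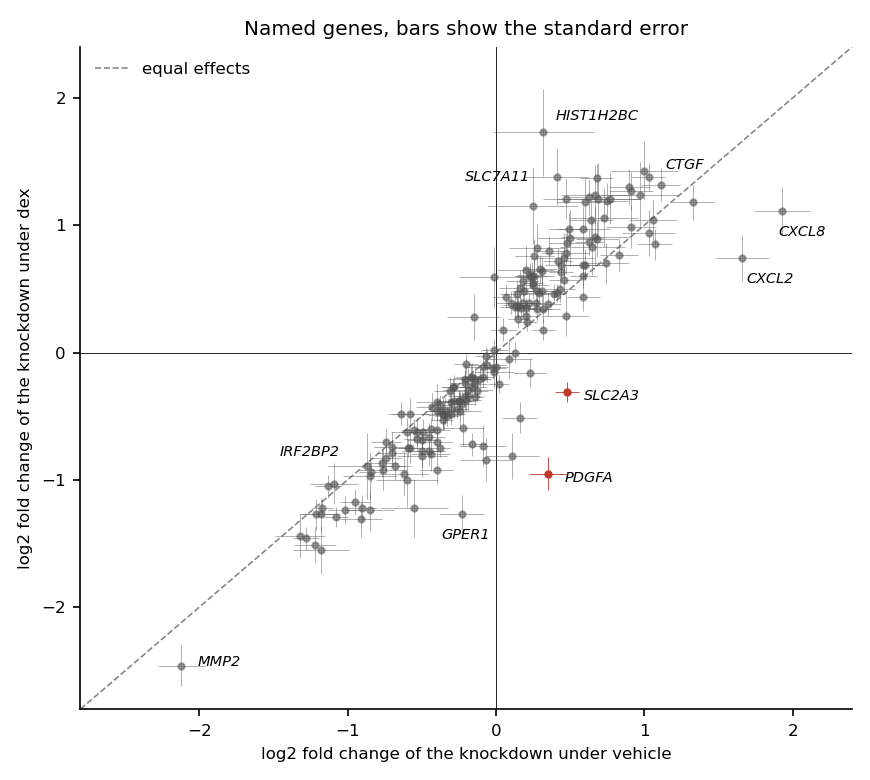
log2 fold change of the knockdown under vehicle (horizontal) and under dex (vertical) for the 197 named genes, with standard errors as bars and a dashed line of equal effects. PDGFA and SLC2A3, in red, are the 2 genes whose difference passed the test, and MMP2 is lowest in both treatments.

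In A549, a lung adenocarcinoma line, the series repeated the knockdown under dex with the same siRNA dose and times. Its groups were pooled before deposit, so the values below are log2 fold changes and false discovery rates (FDR) of the authors' deposited table, with no replicate check here. By FDR under 0.05 in the authors' deposited table, 15.4% of the genes tested in HEK293-GR were higher and 16.4% lower in A549. IRF2BP2 had a log2 fold change of -0.66 in the authors' deposited table. Of the 83 genes that fell by at least 1 in HEK293-GR, 53% were lower and 1.2% higher in the authors' deposited table for A549, and of the 121 that rose by at least 1, 29.8% were higher and 9.92% lower. Matching falls in the authors' deposited table include MMP2 (-1.89), NCS1 (-1.30), WT1 (-1.41), TIMP2 (-1.18), TGFA (-2.60) and SORL1 (-1.78). Several of these were sparse in A549. Pooled siNON dex and siIRF2BP2 dex FPKM were 0.1 and 0.029 for MMP2, 0.109 and 0.045 for WT1, 0.162 and 0.029 for TGFA, and 0.169 and 0.054 for SORL1. For TIMP2 they were 3.47 and 1.676. INSIG1 had -1.96 in the authors' deposited table. Rises went both ways. DNAJB9 had 0.99 and KLHL28 0.84 in the authors' deposited table, but CREB5 had -2.72, SLC7A11 -1.47 and ATF3 -2.94, opposite to HEK293-GR. CREB5 was barely measured in A549, at 0.024 (siNON dex) and 0.004 (siIRF2BP2 dex) pooled FPKM. CTGF, at -0.26 (FDR 0.037), and AMOTL2, at -0.37 (FDR 0.00924), were lower in the authors' deposited table for A549, and no test of the difference between the lines could be made from pooled columns.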

How the data were processed

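Poly(A) RNA of HEK293-GR cells was sequenced in 12 libraries with a column, 3 per group. FPKM values per gene and library were deposited by the authors on build hg19, per the file headers, and the log2 fold changes and FDR (adjusted p-value) columns are the authors' own deposited comparisons. FastQC, Trimmomatic 0.33, HOMER, Bowtie2, TopHat2 and edgeR are named in the submitters' processing notes, without roles. Peak lists were deposited by the authors with the same score, 1, on each peak, and their positions alone were used. Strand handling in counting is not given in the sources used here.

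FPKM values were whole multiples of 1 read for 99.93 to 99.97% of genes, within 0.01 reads beyond rounding, so tags per library (18.2 to 28.5 M) were recovered from them. The test was limma 3.58.1 (R 4.3.3) with a mean-variance trend on log2(FPKM + 0.1), for 15594 genes that reached 10 reads in 3 or more libraries, fitted over 4 groups of 12 libraries (8 residual degrees of freedom, which share 1 spread), with Benjamini-Hochberg adjustment. Counts were assumed when the design was set, and since the files hold FPKM the log-scale test was used. limma voom on the recovered reads called 6207 genes. On simulated data of 15460 genes the script recovered 90 to 94% of changes of 1 and 40 to 42% of changes of 0.5 on the log2 scale, with 9 false calls. The simulated reads had a dispersion of 0.01, no compression of dense genes and no drift with exon length. The real libraries show both, so the false calls of the simulation do not measure those among the real calls.

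Named genes are IRF2BP2 and its relatives, the 14 largest rises and falls (adjusted p under 0.05, 5 RPM or more in the higher group, groups apart, names of non-coding genes left out), up to 4 members with the smallest p in each of 40 lists, up to 6 called genes with the smallest p and a dex peak within 1 kb, and genes whose effect differed between treatments; others are named as chosen after their values were seen. The members and lists were chosen with earlier results of these data known. Alternatives were 2 other pseudocounts, other filters, scalings and weights, a replicate block, fits within a treatment and leaving out each library, and, added after the data were seen, voom and centring in 20 bins of exon length or reads per base. Replicate 4 of each group was not analysed here, and a few named genes are not reported here.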

Additional observations from a re-analysis of the deposited data

Results flagged for a closer look

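For 2 genes the effect of the knockdown differed between dex and vehicle by the test of the difference itself (limma, adjusted over 15594 genes). The difference, the effect under dex minus the effect under vehicle, was -1.3 for PDGFA and -0.79 for SLC2A3, both with an adjusted p of 0.0358. PDGFA read 1.36, 1.35 and 1.88 FPKM in the siIRF2BP2 vehicle libraries and 7.45, 7.99 and 7.3 FPKM in the siIRF2BP2 dex libraries. SLC2A3 read 8.59, 8.32 and 9.53 FPKM and 28.1, 30.9 and 25.6 FPKM in the same groups. Its effect was positive under vehicle and negative under dex. SLC2A3 had 0.674 reads per base, and its lowest dex value was in the deepest library.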

How the results depend on the processing

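The knockdown under dex called 6188 genes, and every alternative stayed within 1.5 times of that: 4142 to 7070 when a library was left out of the 12-library fit, 7006 to 7795 when a dex library was left out of a fit of the dex libraries alone, 9101 with library weights, 5311 with no filter beyond 1 read, and 6516 to 6723 after centring by exon length or reads per base. The 14 largest rises kept their call in 448 of 448 alternative values and the 14 largest falls in 447 of 448. Of all 174 called genes named, 26 lost the call at least once, and 0 reversed direction. No scaling moved the median of all genes by more than 0.043. Replicate numbers did not pair the dex samples: deviations of same-numbered libraries correlated at -0.054 to 0.093 and those of other numbers at -0.119 to 0.075. With the replicate number as a block 5480 genes were called under dex, and 0 genes differed between treatments. The vehicle comparison called 2414 genes, but 4214 with library weights, 782 with only the 6 vehicle libraries, and 1170 to 4827 when a library was left out, the lowest without siIRF2BP2 vehicle replicate 2 and the highest without siNON vehicle replicate 3. The 2 genes that differed between treatments became 22 with a pseudocount of 1, 75 with library weights, 1 after centring by reads per base with or without exon length first, and 0 to 6 when a library was left out. The cause of these changes was not tested. Depth limits genes with few reads, such as CXCL8.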

Other observations

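Gene types in the table differed in how many members were called. Of 384 pseudogenes tested 122 were higher and 9 lower (31.8% and 2.34%), of 1113 non-coding RNA genes 210 were higher and 76 lower, and of 14052 protein-coding genes 3147 were higher and 2615 lower. Pseudogenes share sequence with their parent genes, so their reads are uncertain. Among genes named ZNF, zinc finger genes that mostly encode DNA-binding proteins, 184 of 438 were higher and 30 lower. These shares were 42.0% and 6.85%, beside 22.4% and 17.3% of all genes, and the median log2 fold change was 0.26. This group was chosen after its values were seen. After centring by exon length and reads per base, 127 were higher and 44 lower.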
